A study of Bos taurus with 6 samples.

Results

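The serum EV miRNAs described here are bta-miR-122, bta-miR-192 and bta-miR-194, which are best known from the liver. They were chosen by name and make up 3 of the 359 known *Bos taurus* miRNAs in the deposited count table, which lists 706 miRNAs with the newly predicted ones. Serum was taken on day 30 from 6 female Holstein cows in mid lactation, kept in environmentally controlled chambers. The 3 control cows were fed a total mixed ration (TMR), and the 3 tested cows a ration in which whole cotton seed and soybean hull took the place of part of the alfalfa hay and corn silage. EVs, the membrane particles that cells release, were isolated from serum on an affinity membrane column, and the small RNAs of each cow went into a library of their own. The isolation did not select EVs of a tissue.

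A miRNA is a short RNA that guides a silencing complex to messenger RNAs, mainly by pairing through its seed, bases 2 to 8 counted from its 5′ end. miR-122 is the dominant miRNA of hepatocytes, where it takes part in cholesterol and lipid metabolism, and its level in blood is widely used as a sign of liver injury. miR-192 and miR-194 are made in liver, intestine and kidney, often from one shared precursor transcript, and miR-215 is a close relative of miR-192 with a like tissue range.

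The listed sequences of the 3 miRNAs and of bta-miR-215 are shown because they decide which reads can be told apart. They are written 5′ to 3′ as DNA letters, as in the deposited table, with the seed in capitals.
bta-miR-122: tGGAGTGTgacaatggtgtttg
bta-miR-192: cTGACCTAtgaattgacagccag
bta-miR-215: aTGACCTAtgaattgacagaca
bta-miR-194: tGTAACAGcaactccatgtgga
The sequences are 22 nt long, except for bta-miR-192 with 23 nt. The seed of bta-miR-192 was shared with 1 other listed miRNA, bta-miR-215, and the seeds of bta-miR-122 and bta-miR-194 with 0. Over the 22 positions that bta-miR-192 and bta-miR-215 have in common, 20 are the same. The differences are C1A and C20A, with the base of bta-miR-192 first and positions counted from 1 at the 5′ end. A read that lacks both of these positions would match both miRNAs, and how such reads were counted is not given in the sources used here. No other listed sequence came closer than 8 edits to bta-miR-122 or bta-miR-194, and none lay wholly inside a member or held one.

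In the RefSeq annotation of assembly ARS-UCD2.0, the gene of bta-miR-192 (MIR192) has 2 other miRNA genes within 10 kb, MIR194-2 and MIR194B-2, and the gene of bta-miR-215 (MIR215) also has 2, MIR194-1 and MIR194B. The gene of bta-miR-122 (MIR122) has 0 miRNA genes within this distance. MIR194-1 and MIR194-2 were matched to bta-miR-194 by name, and the counts of its single row do not tell these genes apart. The known miRNAs of the count table have no row named for the MIR194B genes, whose mature products were not analysed here. The authors matched reads to another assembly, ARS-UCD1.2, and positions are therefore not given.

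Levels are given in CPM, the counts of a miRNA per 1000000 known miRNA counts of the same library. The known counts ran from 1226928 to 2088249 per library, lowest in tested cow 1 and next lowest in control cow 1. These same cows had the highest sums of the red blood cell miRNAs bta-miR-451, bta-miR-144 and bta-miR-486, with 59608 CPM in tested cow 1 and 28434 in control cow 1, against 8621 to 16300 in the other cows. The levels and fold changes of the diet groups were therefore also compared without both of these cows. Each read stands for a whole miRNA, so no scaling by length was made, but how well a miRNA is ligated to the adapters also affects its count. In serum, fewer EVs of one source and less of a miRNA per EV cannot be told apart.

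All 3 miRNAs were counted in every cow, and their order was the same in each: bta-miR-192, then bta-miR-122, then bta-miR-194. Over the 6 cows bta-miR-192 ran from 844 to 1352 CPM, bta-miR-122 from 149.9 to 598, and bta-miR-194 from 20.2 to 84.6, so the ranges did not overlap. By mean level they held ranks 48, 78 and 124 of the 359 known miRNAs. In single cows the rank of bta-miR-192 stayed between 44 and 54, that of bta-miR-122 moved between 60 and 93, and that of bta-miR-194 between 113 and 169. Together the 3 miRNAs made up 1391 ± 363 (SD, n = 6) CPM, of which bta-miR-192 held 66.8% to 81.3%, bta-miR-122 12.7% to 29.6% and bta-miR-194 1.27% to 6.26%.

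**Figure D1:**
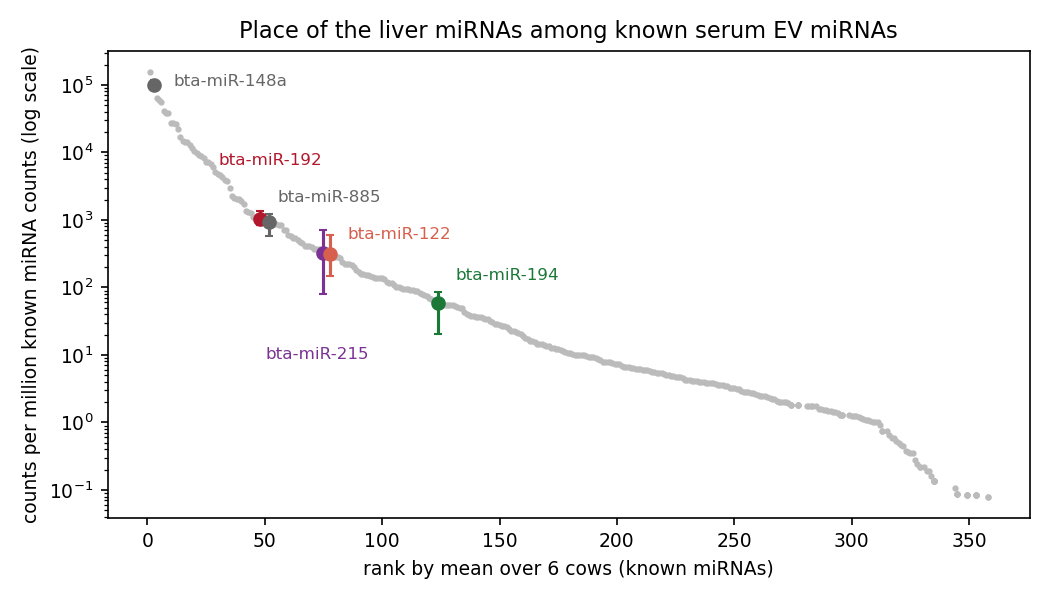
Known serum EV miRNAs ordered by their mean level over the 6 cows, with rank on the x axis and CPM on a logarithmic y axis. Grey dots are all known miRNAs with a count. Coloured points are the 3 liver miRNAs and bta-miR-215, dark grey points are bta-miR-148a and bta-miR-885, and bars run from the lowest to the highest cow. The 3 liver miRNAs sit at ranks 48, 78 and 124.

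The neighbours in this order did not differ from them beyond their spread over the cows. bta-miR-361, directly above bta-miR-192, was at 1077 ± 226 (SD, n = 6) CPM and exceeded it in 3 of 6 cows, and bta-miR-339a, directly below, was at 1021 ± 332 (SD, n = 6) and exceeded it in 4 of 6. The neighbours of bta-miR-122 were bta-miR-181b at 311 ± 72.1 (SD, n = 6) CPM and bta-miR-1839 at 297 ± 54.7 (SD, n = 6), each above it in 4 of 6 cows. For bta-miR-194 they were bta-miR-197 at 61.9 ± 30.7 (SD, n = 6) CPM, above it in 4 of 6 cows, and bta-miR-221 at 55.7 ± 61.4 (SD, n = 6), above it in 1 of 6.

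By the coefficient of variation, the cows differed most in bta-miR-122. Its counts were 710, 506 and 363 in control cows 1 to 3 and 734, 376 and 313 in tested cows 1 to 3. Scaled to the known counts, this was 462 (95% interval 428.5 to 497), 252 (230.4 to 275) and 182 (164 to 202) CPM in the control group. In the tested group it was 598 (556 to 643), 200.1 (180.4 to 221) and 149.9 (134 to 167). Cow 1 of each group stood above the other 4 cows, and the groups overlapped. The coefficient of variation over the 6 cows was 58.8%, where counting error alone gives 4.55%. Of the 99 known miRNAs with at least 100 counts in every library, 92 varied less, and the median over the 99 was 19.6%. These are exact binomial (Clopper-Pearson) intervals for counting error alone, and PCR copies of a molecule make them too narrow.

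bta-miR-192 was the steadiest of the 3. Its counts were 1703, 2039 and 1679 in control cows 1 to 3 and 1659, 1638 and 2005 in tested cows 1 to 3. The levels were 1108 (95% interval 1056 to 1162), 1015 (971 to 1060.0) and 844 (804 to 885) CPM in the control group. In the tested group they were 1352 (1288 to 1419), 872 (829.9 to 915) and 960.1 (919 to 1003). Tested cow 1 was highest on this scale and the groups overlapped. Scaled to clean reads instead (RPM), control cow 2 was highest with 159 RPM, and tested cow 1, with 115 RPM, was above tested cow 3 alone. In CPM, the coefficient of variation was 18.2%, close to the median of 19.6% over the 99 well-counted known miRNAs, of which 44 varied less.

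bta-miR-194 was the least counted, with 31, 170 and 84 counts in control cows 1 to 3 and 90, 109 and 147 in tested cows 1 to 3. Its levels were 20.2 (95% interval 13.7 to 28.6), 84.6 (72.4 to 98.3) and 42.2 (33.7 to 52.3) CPM in the control group. In the tested group they were 73.4 (59.0 to 90.2), 58.0 (47.6 to 70.0) and 70.4 (59.5 to 82.7). Control cow 1 was lowest and control cow 2 highest, with all tested cows between them. The interval of control cow 1 did not reach that of any other cow. The coefficient of variation was 40.6% against 9.93% from counting error.

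**Figure D2:**
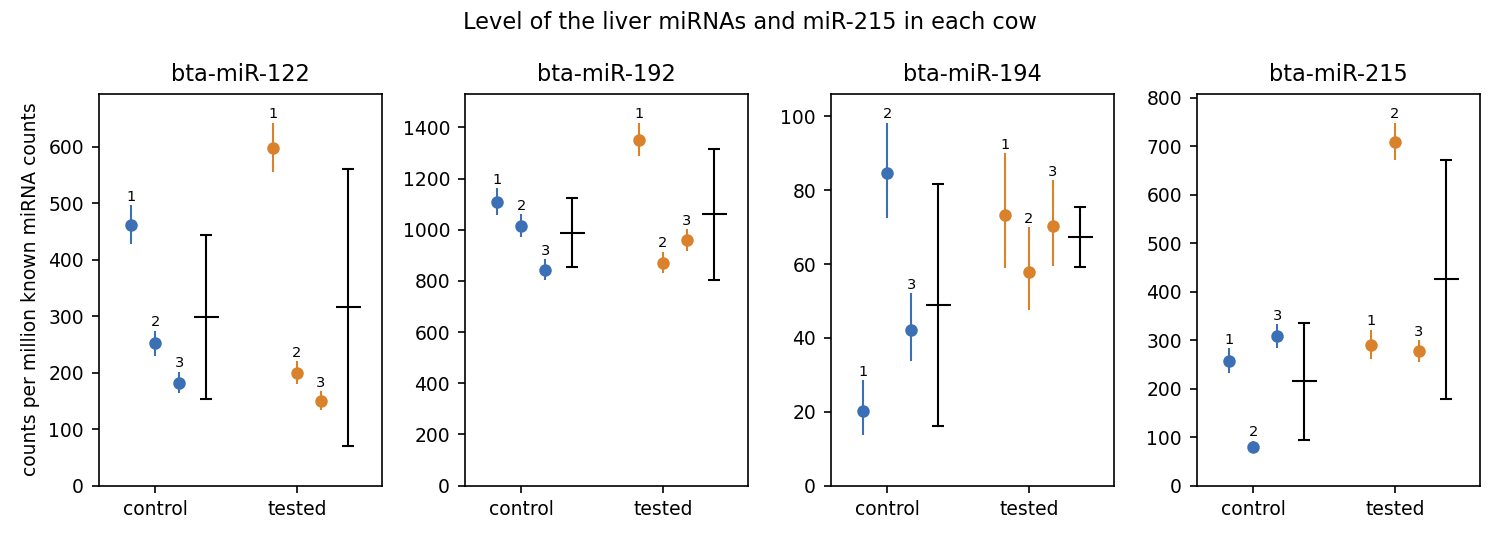
CPM of the 3 liver miRNAs and bta-miR-215 in each cow. Points are cows, numbered by replicate, with 95% counting intervals, blue for control and orange for tested. Black marks are group means with SD (n = 3), and each y axis starts at 0. The groups overlap in all 4 panels, and bta-miR-122 is high in cow 1 of both groups.

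The diets were compared to learn whether the change of feed goes with a change in the serum EV level of these miRNAs. None of the 3 differed by more than the spread between cows. bta-miR-122 was at 299 ± 146 (SD, n = 3) CPM on the control diet and 316 ± 246 (SD, n = 3) on the tested diet (two-sided exact permutation test, p = 0.9). bta-miR-192 averaged 989 ± 134 (SD, n = 3) and 1061 ± 256 CPM (SD, n = 3) (exact permutation test, p = 0.8). For bta-miR-194 the levels were 49.0 ± 32.8 (SD, n = 3) and 67.2 ± 8.15 (SD, n = 3) CPM (exact permutation test, p = 0.4). The sum of the 3 was 1337 ± 261 (SD, n = 3) on the control diet and 1445 ± 502 (SD, n = 3) on the tested diet (exact permutation test, p = 0.8). With 3 cows on each diet, this exact permutation test cannot go below p = 0.1.

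In the edgeR quasi-likelihood test, fitted on the counts of all 623 miRNAs that summed to at least 10, a positive log2 fold change means a higher level in the tested group. The log2 fold change of bta-miR-122 was 0.06 (standard error, SE, 0.58, edgeR adjusted p = 0.987). Its 95% interval ran from -1.19 to 1.31, which is a ratio of tested to control between 0.438 and 2.48. For bta-miR-192 the log2 fold change was 0.05 (SE 0.31, edgeR adjusted p = 0.987), with an interval from -0.61 to 0.71 or a ratio between 0.655 and 1.64. For bta-miR-194 it was 0.38 (SE 0.86, edgeR adjusted p = 0.949), with an interval from -1.47 to 2.24 or a ratio between 0.361 and 4.72. A log2 fold change of 1 is thus outside the interval of bta-miR-192 and inside those of the other two. A miRNA was called when its unadjusted p was below 0.05 and its absolute log2 fold change above 1, and 0 of the 3 were called. Over all 623 miRNAs 20 were called, which is 3.21%, and over the 312 known ones 3, which is 0.962%. DESeq2, another count test, also called 0 of the 3, and none of them had an unadjusted p below 0.05 with either tool.

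The sign of these small differences depended on single cows. Without tested cow 1 the log2 fold change of bta-miR-122 was -0.79 and that of bta-miR-192 was -0.17. Without control cow 3 these were -0.17 and -0.0029, and without control cow 2 that of bta-miR-122 was -0.0034. Leaving out control cow 1 gave 0.45 for bta-miR-122 and -0.0058 for bta-miR-194, and leaving out control cow 2 gave 0.99 for bta-miR-194. Without control cow 1 and tested cow 1 together it was -0.39 for bta-miR-122, -0.12 for bta-miR-192 and -0.074 for bta-miR-194. With counts scaled to the clean reads of a library in place of its known counts, the mean of the tested group was lower for all 3. In none of these edgeR fits was a member called.

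bta-miR-215 has the seed of bta-miR-192 and was the most variable of the 4 miRNAs. Its counts were 395, 160 and 614 in control cows 1 to 3 and 356, 1334 and 578 in tested cows 1 to 3. The levels were 257, 79.6 and 308 CPM on the control diet and 290.2, 709.8 and 277 on the tested diet. Tested cow 2 was highest and control cow 2 lowest, and control cow 3 overlapped the tested group. It averaged 215.03 ± 120.04 (SD, n = 3) on the control diet and 426 ± 246 CPM (SD, n = 3) on the tested one (exact permutation test, p = 0.3). Its log2 fold change was 0.94 (SE 0.60, edgeR adjusted p = 0.541), with an interval from -0.35 to 2.24. It was 0.27 without tested cow 2 and 0.56 without control cow 2. With known miRNAs alone in the fit it was 0.98, with an interval from 0.14 to 1.83 and an unadjusted p of 0.0236 (adjusted p = 0.608 from edgeR), below the fold threshold. Without control cow 1 and tested cow 1 together, bta-miR-215 passed the threshold, with a log2 fold change of 1.25 and an unadjusted p of 0.0279 (adjusted p = 0.730 from edgeR).

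The share of bta-miR-215 in the counts of the seed pair, bta-miR-192 and bta-miR-215 together, ran from 7.28% in control cow 2 to 44.9% in tested cow 2. In the other cows it was 18.8% and 26.8% on the control diet and 17.7% and 22.4% on the tested diet. The pair together was steadier than bta-miR-215 alone, with 1204 ± 142 (SD, n = 3) CPM on the control diet and 1487 ± 219 (SD, n = 3) on the tested diet (exact permutation test, p = 0.2). The groups overlapped.

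Other miRNAs linked to the liver were listed by name: miR-885, miR-802, miR-148a, miR-101, miR-193a, miR-193b, miR-365, miR-33a, miR-33b, miR-455 and miR-483. Of these 11, 8 have a row in the count table, as 9 miRNAs, and 6 of the 9 had enough counts to be tested. None of the 6 was called, beside 3.21% over all miRNAs tested. Their log2 fold changes had a median of -0.21, where the median was 0.07 over all 623 miRNAs and -0.0089 over the 312 known ones. All 6 were below 0 in this fit, but that of bta-miR-148a alone was below 0 in every alternative fit, and it went from -0.26 to -0.095 without control cow 3. Without control cow 3 the log2 fold change was 0.26 for both bta-miR-365-3p and bta-miR-193a-5p, without control cow 1 it was 2.44 for bta-miR-193a-3p and 0.03 for bta-miR-101, and without tested cow 2 it was 0.05 for bta-miR-885. bta-miR-148a, an abundant miRNA of liver and milk, was at 104987 ± 16657 (SD, n = 3) CPM on the control diet and 91393 ± 1676 (SD, n = 3) on the tested diet. Its log2 fold change was -0.26 (SE 0.14, edgeR adjusted p = 0.448). bta-miR-885, which is also known from the liver, had a level close to that of bta-miR-192, with 956 ± 112 (SD, n = 3) and 908 ± 318 (SD, n = 3) CPM and a log2 fold change of -0.15 (SE 0.32, edgeR adjusted p = 0.947).

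The other 4 tested miRNAs of the list were far less abundant than bta-miR-148a. bta-miR-365-3p was at 371 ± 184 (SD, n = 3) CPM on the control diet and 363 ± 48.9 (SD, n = 3) on the tested diet. bta-miR-193a-5p was at 245 ± 98.9 (SD, n = 3) and 232 ± 70.8 (SD, n = 3), and bta-miR-101 at 105 ± 58.0 (SD, n = 3) and 83.4 ± 37.8 (SD, n = 3). bta-miR-193a-3p had 53 counts in control cow 1 and 0 to 6 in every other cow. The remaining 3, bta-miR-193b, bta-miR-455-3p and bta-miR-483, had 0 to 2 counts in each cow.

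**Figure D3:**
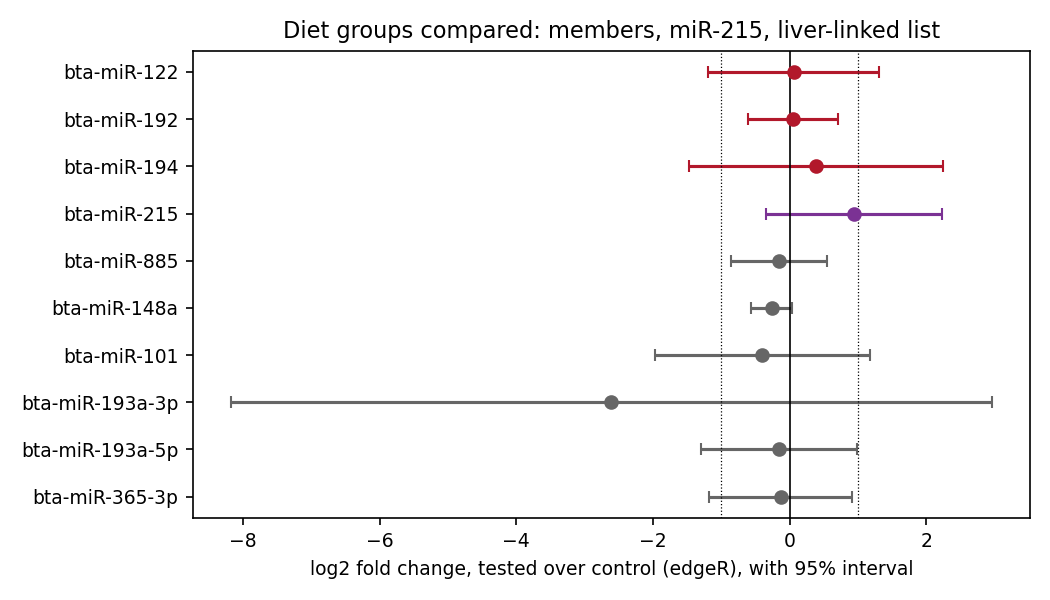
Log2 fold change of tested over control from edgeR on the x axis, with its 95% interval, for the 3 liver miRNAs (red), bta-miR-215 (purple) and the 6 tested miRNAs of the liver-linked list (grey). The solid line marks no difference and the dotted lines the threshold of 1. All 10 intervals include 0, and those of bta-miR-192, bta-miR-885 and bta-miR-148a lie within the dotted lines.

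Levels of 2 miRNAs in the same library can be compared without a total, as the ratio of their counts. bta-miR-192 was counted 2.40, 4.03 and 4.63 times as often as bta-miR-122 in control cows 1 to 3 and 2.26, 4.36 and 6.41 times as often in tested cows 1 to 3. The ratio was lowest in cow 1 of each group. On the log2 scale the group means of this ratio were 1.83 ± 0.50 (SD, n = 3) and 1.99 ± 0.76 (SD, n = 3) (exact permutation test, p = 0.8).

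The ratio of bta-miR-192 to bta-miR-194, whose genes include the neighbours MIR192 and MIR194-2, was 54.9, 12.0 and 20.0 in control cows 1 to 3 and 18.4, 15.03 and 13.6 in tested cows 1 to 3. Control cow 1 stood apart and the other 5 cows lay between 12.0 and 20.0. In log2 units these ratios averaged 4.56 ± 1.12 (SD, n = 3) and 3.96 ± 0.22 (SD, n = 3) (exact permutation test, p = 0.6), and without control cow 1 their difference went from -0.60 to 0.0085. The ratio of bta-miR-122 to bta-miR-194 had the widest range of the 3, from 2.13 in tested cow 3 to 22.9 in control cow 1 (exact permutation test on the log2 scale, p = 0.6).

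The levels of bta-miR-122 and bta-miR-192 went together over the cows mainly through cow 1 of each group, and bta-miR-194 showed no relation with either that passed the test. All levels share the total of their library, which was lowest in these same cows. Over the 6 cows the log2 levels of bta-miR-122 and bta-miR-192 had a Pearson correlation of 0.892 (exact permutation test, p = 0.0125, adjusted over the 3 pairs p = 0.0375). Spearman's rho was 0.829 (exact permutation test, p = 0.0583, adjusted p = 0.175). Among the 4 cows other than control cow 1 and tested cow 1 the Pearson correlation was 0.332, so the relation rested on these cows. With control cow 1 or tested cow 1 alone left out it was 0.907 and 0.769 (exact permutation tests, p = 0.0667 and p = 0.117). On the scale of clean reads it was 0.615 over the 6 cows (exact permutation test, p = 0.211). With library totals scaled by the TMM factors of edgeR it was 0.940 (exact permutation test, p = 0.00278), so its size depended on the scale.

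For bta-miR-122 and bta-miR-194 the Pearson correlation was -0.273 and Spearman's rho 0.143 (exact permutation tests, p = 0.646 and p = 0.803, adjusted p = 0.926 and p = 0.803). Pearson's value was 0.365 without control cow 1 and tested cow 1. For bta-miR-192 and bta-miR-194 the values were 0.046 and 0.314 (exact permutation tests, p = 0.926 and p = 0.564, adjusted p = 0.926 and p = 0.803). The Pearson correlation was -0.608 without control cow 3 and tested cow 1, the cows farthest from the median of bta-miR-192. Each copy of the bta-miR-194 gene lies beside the gene of bta-miR-192 or of bta-miR-215, so their sum was compared with bta-miR-194 as well, a relation added after the data were seen. The Pearson correlation was -0.045 and Spearman's rho -0.143 (exact permutation tests, p = 0.949 and p = 0.803, and adjusted p = 0.949 and p = 1 over the 7 added relations). Without tested cows 1 and 2 the Pearson correlation was -0.796. Within a diet group there are 3 cows, too few for a correlation.

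**Figure D4:**
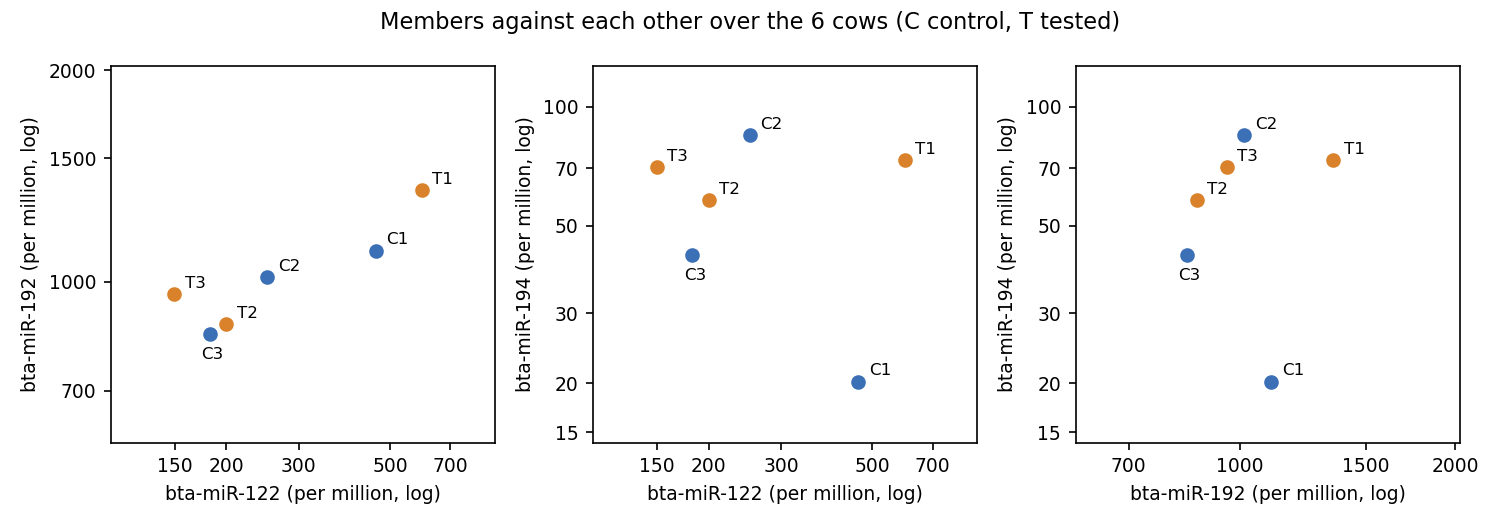
The 3 liver miRNAs plotted against each other, in CPM on logarithmic axes. Each point is a cow, C for control (blue) and T for tested (orange). bta-miR-122 and bta-miR-192 are both highest in T1 and next highest in C1 (left), while C1 has the lowest bta-miR-194 (middle and right).

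Of the 98 other known miRNAs with at least 100 counts in every library, those with the levels most like bta-miR-122 over the 6 cows were bta-miR-10a with a Pearson correlation of 0.989, bta-miR-451 with 0.969 and bta-miR-150 with 0.968, while the median over the 98 was 0.036. These are the highest of many values over the same 6 libraries and are a description. bta-miR-451 is the leading miRNA of red blood cells, and bta-miR-150 belongs to mature lymphocytes. bta-miR-451 was at 7169, 4144 and 3168 CPM in control cows 1 to 3 and at 17341, 2925 and 1688 in tested cows 1 to 3. In both diet groups the order of the 3 cows was that of bta-miR-122. Since bta-miR-451 was picked for this likeness, the order is no further evidence of a relation.

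The sum of the 3 red blood cell miRNAs was 28434, 16300 and 13468 CPM in control cows 1 to 3 and 59608, 10840 and 8621 in tested cows 1 to 3, and 0 of the 3 was at 0 in any cow. bta-miR-451, picked above for its likeness to bta-miR-122, is part of this sum. bta-miR-486 had 32311, 24191 and 20358 counts in control cows 1 to 3 and 51206, 14688 and 14427 in tested cows 1 to 3, and bta-miR-144 had 379 counts in control cow 1 and 653 in tested cow 1 against 49 to 229 elsewhere, so both were highest in cow 1 of each group. The log2 level of the red blood cell sum had a Pearson correlation of 0.971 with bta-miR-122 (exact permutation test, p = 0.00278, adjusted p = 0.0146 over 7 relations added after the data were seen). Spearman's rho was 0.943 (exact permutation test, p = 0.0167, adjusted p = 0.0583). Without control cow 1 and tested cow 1 the Pearson correlation was 0.872, on the scale of clean reads it was 0.956 over the 6 cows, and with the red blood cell miRNAs left out of the library total it was 0.973. The cows of each diet group came in the same order by both measures.

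For bta-miR-192 the correlation with the red blood cell sum was 0.899 (exact permutation test, p = 0.0167, adjusted p = 0.0389), with a Spearman's rho of 0.771 (exact permutation test, p = 0.103, adjusted p = 0.238). It was 0.163 without control cow 1 and tested cow 1, and rested on these cows. For bta-miR-194 it was -0.153 with a rho of 0.086 (exact permutation tests, p = 0.764 and p = 0.919, adjusted p = 0.891 and p = 1), and 0.064 without them.

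The sum of the 4 white blood cell stems miR-142, miR-150, miR-155 and miR-223 ran from 196 to 386 CPM on the control diet and from 124 to 439 on the tested diet. Its members did not move alike. bta-miR-150, one of the 3 miRNAs picked above as most like bta-miR-122, had 326 of the 439 CPM in tested cow 1, so the sum is not independent of that choice. bta-miR-142-5p had 147, 33 and 23 counts in control cows 1 to 3 and 80, 20 and 7 in tested cows 1 to 3, highest in cow 1 of each group as bta-miR-122 was. bta-miR-155 had 97, 136 and 235 counts in control cows 1 to 3, the reverse order of bta-miR-122, and 45, 204 and 47 in tested cows 1 to 3. bta-miR-223 was highest in tested cow 3, with 95 counts against 4 to 33 elsewhere, where bta-miR-122 was lowest. With bta-miR-122 the white blood cell sum had a Pearson correlation of 0.949 and a rho of 0.943 (exact permutation tests, p = 0.00417 and p = 0.0167, adjusted p = 0.0146 and p = 0.0583), and 0.940 without tested cows 1 and 3, which are farthest from its median. With bta-miR-192 the correlation was 0.720 and rho 0.714 (exact permutation tests, p = 0.103 and p = 0.136, adjusted p = 0.180 and p = 0.238). With bta-miR-194 it was -0.365 and rho -0.029 (exact permutation tests, p = 0.486 and p = 1, adjusted p = 0.681 and p = 1). Without tested cow 1 alone the correlation with bta-miR-192 was 0.475 (exact permutation test, p = 0.408). Without tested cows 1 and 3 the Pearson correlations of bta-miR-192 and bta-miR-194 with the white blood cell sum were 0.786 and -0.789. The blood cell sums and the liver miRNAs share the same 6 libraries and totals, and the part of blood cell RNA in the levels of the liver miRNAs was not tested.

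**Figure D5:**
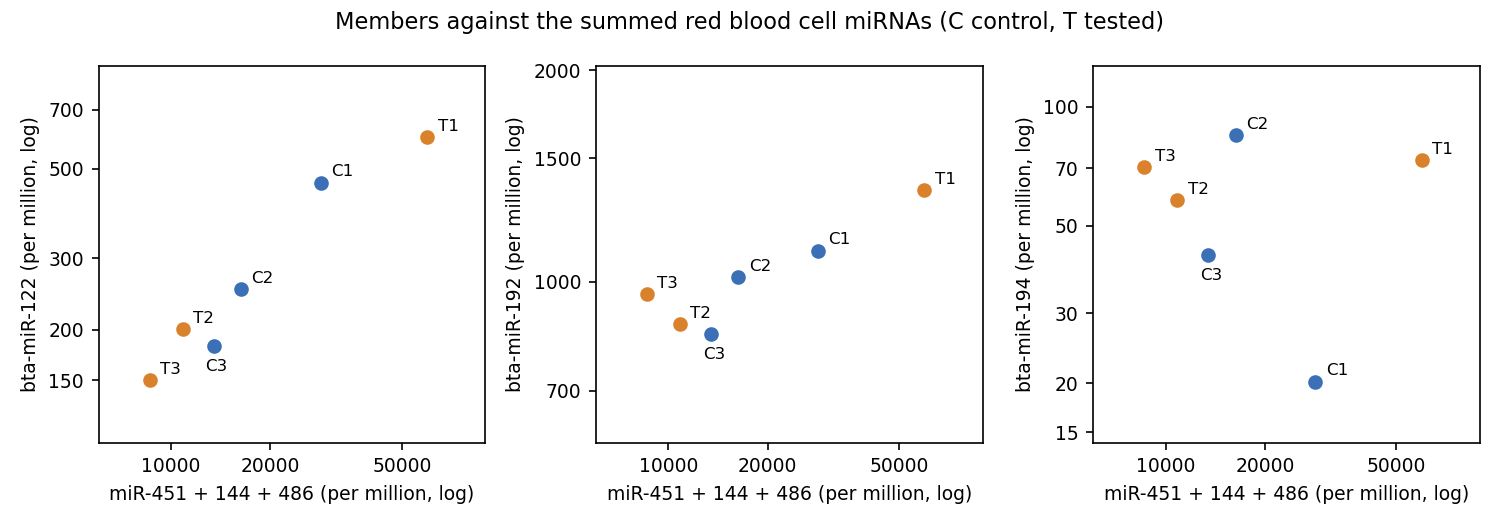
The 3 liver miRNAs (y axes) against the summed bta-miR-451, bta-miR-144 and bta-miR-486 (x axis), in CPM on logarithmic axes. Each point is a cow, C for control (blue) and T for tested (orange). bta-miR-122 rises with the red blood cell sum from T3 to T1 with 1 swap between T2 and C3, while bta-miR-194 shows no such order.

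The other marker lists are given by their sums in the diet groups. The vessel and platelet list, with 8 miRNAs of the 6 stems, ran from 279.8 to 680.4 CPM on the control diet and from 723 to 851 on the tested diet. These groups did not overlap (exact permutation test, p = 0.1, the lowest that 3 against 3 cows can give). Most of the sum was bta-miR-143 in every cow, with a log2 fold change of 0.64 (SE 0.41, edgeR adjusted p = 0.544). The share of all miRNAs whose groups did not overlap was not counted, so the sum is no result about the list as a whole. Of the 8 miRNAs 1 was called, beside 3.21% over all miRNAs. This was bta-miR-199a-3p, higher on the tested diet with a log2 fold change of 2.66 by edgeR, and the call was lost when tested cow 1 (1.46), control cow 3 (2.32) or control cow 1 (2.52) was left out. The epithelial list, with 7 of 8 stems, ran from 77918 to 93340 CPM on the control diet and from 90386 to 97481 on the tested diet (exact permutation test, p = 0.3). The muscle list, with 5 of 7 stems, ran from 133.4 to 158 and from 152 to 178 CPM (exact permutation test, p = 0.2). Between diets the red and white blood cell sums overlapped (exact permutation tests, p = 1 for each).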

How the data were processed

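Small RNAs of serum EVs from 6 cows were sequenced. The authors trimmed the reads (cutadapt 1.14 in the submitters' processing notes, which also name Bowtie), matched them to the bovine genome (ARS-UCD1.2), set other RNA classes aside and named known miRNAs with miRBase. The authors deposited whole-number counts per miRNA and library without normalization. They also deposited values headed TPM, which are RPM values scaled to clean reads, since the ratio of count to value is one number per library. The counting tool is not given in the sources used here. The authors' own columns of fold changes, standard errors, test statistics, p-values and base means, and their table of called miRNAs, were not used.

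Groups come from the sample titles. Differential expression used edgeR 4.0.16 in R 4.3.3 (TMM, glmQLFit, glmQLFTest) on all miRNAs with a summed count of at least 10, with Benjamini-Hochberg adjustment over all of them. The test was also run on simulated data, and its outcome there is not given or used here. The standard error is the log2 fold change divided by the square root of F. Levels, ratios and correlations used SciPy 1.17.1, pandas 2.3.3 and NumPy 2.4.6 in Python 3.11.15 with exact enumeration, and plots Matplotlib 3.10.9. Totals per library ran from 1277693 to 2176002 counts, 96.0% to 97.8% of them on known miRNAs. Alternatives were DESeq2 1.42.0, limma 3.58.1 on log2(CPM + 1), where CPM is here scaled by TMM over all tested miRNAs and not to the known counts, other normalizations and filters, known miRNAs only, robust estimation, other totals, the replicate number as a block, and each library left out. The named miRNAs are the members, bta-miR-215, the liver-linked list, the neighbours in rank and in sequence, and for each member the 3 well-counted known miRNAs most like it. From the marker lists come bta-miR-144, bta-miR-486, bta-miR-142-5p, bta-miR-155, bta-miR-223, bta-miR-143 and bta-miR-199a-3p. Members and lists were chosen with earlier results of these data known. No library was left out of the main comparison, and no pair of libraries was identical.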

Additional observations from a re-analysis of the deposited data

How the results depend on the processing

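No alternative called any of the 3 liver miRNAs between the diets, but the signs of their differences, which lie near 0, were not stable. The log2 fold change of bta-miR-122 was -0.0021 with DESeq2, -0.14 with limma, -0.0014 with RLE factors, -0.14 with the replicate block and -0.39 without both cows 1 (an alternative chosen after the data were seen), and -0.79 to 0.45 with each cow left out. For bta-miR-192 it was -0.025 with DESeq2, -0.024 with RLE factors and -0.12 without both cows 1, and -0.17 to 0.18 with each cow left out. For bta-miR-194 it was -0.074 without both cows 1, and -0.0058 to 0.99 with each cow left out. Scaled to clean reads (RPM), the tested group minus the control group was -9.05 for bta-miR-122, -32.3 for bta-miR-192, -0.569 for bta-miR-194 and -41.9 for their sum. In CPM and without both cows 1, it was -42.2 for bta-miR-122, -13.4 for bta-miR-192 and -54.8 for the sum. With each cow left out it ran from -124 to 100.4 for bta-miR-122, from -72.9 to 167 for bta-miR-192, from 3.83 to 36.1 for bta-miR-194 and from -181 to 266 for the sum. The difference in log2 ratio ran from -0.18 to 0.57 for bta-miR-192 over bta-miR-122, from -1.09 to 0.0085 for bta-miR-192 over bta-miR-194 and from -1.35 to 0.13 for bta-miR-122 over bta-miR-194. The cause of these reversals was not tested.

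With each cow left out, the correlation of bta-miR-122 and bta-miR-192 ran from 0.769 to 0.966, that of bta-miR-122 and bta-miR-194 from -0.731 to 0.389 and that of bta-miR-192 and bta-miR-194 from -0.373 to 0.624. Without the cows farthest from the median these were 0.332, 0.365 and -0.608. The first was 0.615 on clean reads and 0.940 with library totals scaled by TMM factors. With the red blood cell sum, the correlation of bta-miR-122 ran from 0.961 to 0.986 and that of bta-miR-194 from -0.742 to 0.290. With the white blood cell sum, that of bta-miR-194 ran from -0.739 to 0.157 and that of bta-miR-192 from 0.475 to 0.895. For bta-miR-192 it was 0.779 on clean reads and 0.827 with library totals scaled by TMM factors. For bta-miR-192 and the red blood cell sum the correlation was 0.515 on clean reads, 0.977 with library totals scaled by TMM factors and 0.692 to 0.968 with each cow left out.

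Of all miRNAs tested, 20 were called, against 13 with filterByExpr, 12 with the replicate block, 26 with DESeq2 and 17 to 23 with each cow left out. The labels give nothing but the number for cows with the same replicate number. The deviations of these cows from the group means had correlations of 0.431, 0.029 and 0.141 over 99 miRNAs for numbers 1 to 3. The value of the cows numbered 1 was the highest of all pairings of a control with a tested cow, but not every cow correlated best with its own number. Whether cows with the same number shared more than the number was not tested. Among the 3 liver miRNAs counting error was largest for bta-miR-194, with an interval from 13.7 to 28.6 CPM around 20.2 in control cow 1.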

Other observations

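The known miRNAs most like bta-miR-192 over the 6 cows were bta-miR-10b with a Pearson correlation of 0.946, bta-miR-331-3p with 0.915 and bta-miR-100 with 0.910. bta-miR-10b was at 367, 211 and 188 CPM in control cows 1 to 3 and at 569, 146 and 184 in tested cows 1 to 3, so it also was highest in cow 1 of each group. Its coefficient of variation was 58.4%, against 18.2% for bta-miR-192. Those most like bta-miR-194 were bta-miR-1839 with 0.919, bta-miR-140 with 0.805 and bta-miR-29b with 0.798, and all 3 had their lowest level in control cow 1. These values were the highest of 98 for bta-miR-192 and of 99 for bta-miR-194, over the same 6 libraries.

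For every 1000 counts of bta-miR-451 there were 64.4, 60.8 and 57.6 counts of bta-miR-122 in control cows 1 to 3 and 34.5, 68.4 and 88.8 in tested cows 1 to 3. The highest of these ratios was 2.57 times the lowest. The levels of bta-miR-122 itself differed 3.99-fold between cows, and those of bta-miR-451 ran from 1688 to 17341 CPM. In the control cows the ratio lay between 57.6 and 64.4 although both miRNAs varied, and in the tested cows between 34.5 and 88.8. Tested cow 1, with the most bta-miR-451, had the lowest ratio. This ratio was chosen after its values were seen.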
